A study of Homo sapiens with 47 samples.

Results

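Among 37 CTCs (circulating tumor cells) of the LM2 model, 11 held reads of PTPRC, the gene of the leukocyte antigen CD45, and 26 held none. The 2 classes were chosen by this value alone, so PTPRC is described here and supports no test. The cells come from a series of 43 cells with values, the other 6 being LM2 cells grown in culture. LM2 (MDA-MB-231-LM2) is an established human TNBC line selected for metastasis to the lung, and the cells carried a GFP tag.

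The CTCs were shed by tumors that grew from LM2-GFP cells in the fourth mammary fat pad of NSG mice, which were 6 to 8 weeks old at injection. Blood was taken at the end of the experiment and passed through a size-based Parsortix cassette, and the captured cells were stained live with CD45 as a negative selection marker and with Hoechst. GFP-tagged cells were then picked singly, so a tumor cell that carried blood cells or their fragments with it cannot be told apart from a tumor cell that made these transcripts itself. NSG mice lack mature T, B and NK cells and keep neutrophils, monocytes, red cells and platelets. Each cell gave 1 SMARTseq2 library, with full-length cDNA from polyadenylated RNA and no unique molecular identifiers. The letters c and s in the library names of mouse 5546 are not explained, and whether they mark a batch is not known here. Reads were aligned to the human genome alone, so transcripts of the tumor cell and transcripts of mouse cells that are similar enough to align cannot be told apart in these values. Normalized values below are read counts scaled by a size factor per cell, and detection of a gene means at least 1 read.

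CD45 is a receptor-type tyrosine phosphatase found on nearly all nucleated blood cells. It removes inhibitory phosphates from kinases of the SRC family, such as LCK and LYN, and so sets the threshold at which immune receptors signal. Epithelial cells and carcinoma cells do not normally make it, and its absence is part of the usual definition of a CTC.

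PTPRC (ENSG00000081237) lies on the plus strand of chromosome 1, at chr1:198638457-198757476 in GRCh38. CTC 5546-s9 held 381 of its reads. The next CTCs held far fewer, with 12 in 5549-6, 10 in 5546-c10, 8 in 5546-s8 and 7 in 5546-c9. Of the remaining members, 5542-1, 5546-s4 and 5546-c8 held 3 reads each, 5546-c4 and 5549-5 held 2 each, and 5546-s7 held 1. The member just inside the rule therefore rested on 1 read, and all 26 CTCs outside it were at 0. In normalized values, PTPRC ranged from 0.686 to 205 among the members, with a median of 2.87. The share of CTCs with PTPRC was 29.7% (exact 95% binomial interval 15.9% to 47.0%). None of the 6 cultured cells held a read, which allows a share of up to 50%, and these intervals and limits cover counting error only.

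The members were spread unevenly over the mice. Mouse 5546 gave 8 of its 17 CTCs, mouse 5549 gave 2 of 4 and mouse 5542 gave 1 of 4, while 0 of 2 CTCs of mouse 5541 and 0 of 10 of mouse 5545 held PTPRC. In mouse 5546, 4 of 9 libraries with the letter c and 4 of 8 with the letter s were members. Classes were compared within the 3 mice that hold both, and with 3 mice the two-sided exact permutation test cannot give a p under 0.25.

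**Figure D1:**
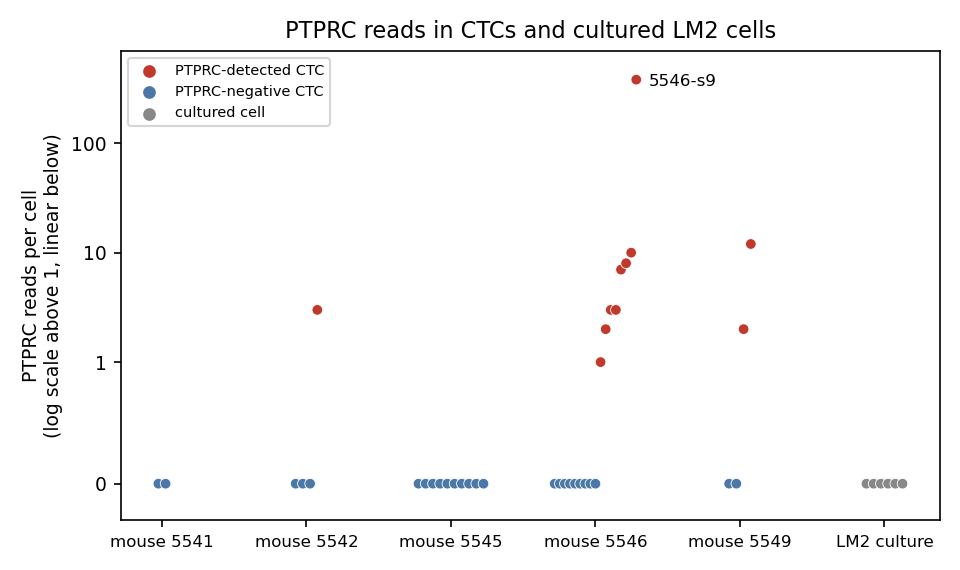
Reads of PTPRC per cell (y axis, logarithmic above 1 and linear below) for the CTCs of each of 5 mice and for 6 cultured LM2 cells; each point is a cell. CTC 5546-s9, with 381 reads, stands above the other 10 members, which hold 1 to 12.

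The classes overlapped in depth. Members held 588141 to 2041333 reads (median 1077001) and PTPRC-negative CTCs held 469614 to 1890720 (median 1332454). Genes detected per cell ran from 4656 to 12299 among members and from 2313 to 11057 among negative CTCs, and the mean difference within mice was 212 ± 968 genes (SD, n = 3 mice; exact permutation test, p = 0.75). The mitochondrial share of reads differed within mice by 0.063 ± 2.67 percentage points (SD, n = 3; exact p = 1). Members 5546-s7, 5546-s9 and 5546-c10 had mitochondrial shares of 23.9%, 22.7% and 21.5%, above every other CTC.

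More leukocyte genes were detected in members than in PTPRC-negative CTCs of the same mouse, in all 3 mice. Of 162 genes in the leukocyte lists (pan-leukocyte genes, partners of CD45, and markers of T, B and NK cells, monocytes, neutrophils and HLA class II), 105 had a row in the table. The member of mouse 5542 held 33 of these 105 genes, against a mean of 22.7 in its 3 negative CTCs. Means were 44.2 against 31.6 genes in mouse 5546 and 32 against 26.5 in mouse 5549. The mean difference was 9.51 ± 3.67 genes (SD, n = 3 mice; exact permutation test, p = 0.25, the smallest possible). Without CTC 5546-s9 the difference was 10.3 genes. The share of reads on these genes did not follow, at a mean of 0.825% in members and 0.793% in negative CTCs, a difference of 0.031 ± 0.276 points (SD, n = 3; exact p = 0.75). It was higher in members of mice 5542 and 5546 and lower in those of mouse 5549. Most of this share lay on the substrates and partners of CD45, at 0.516% in members and 0.601% in negative CTCs. That list holds LGALS1, which is also on the list of genes abundant in LM2 cells described below. Its part in the share was not separated, so the share does not measure leukocyte transcripts alone. Pan-leukocyte genes took 0.233% and 0.132%, and their share was higher in members of each mouse. Most of this gap came from the single member of mouse 5542, at 0.469% against 0.210%. Shares were 0.133% against 0.103% in mouse 5546 and 0.0958% against 0.0834% in mouse 5549. Cultured LM2 cells held 0.0777% to 0.201% on the same list, so this share does not measure leukocyte transcripts alone either.

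LM2 cells in culture themselves held reads of 49 of the 105 leukocyte genes, among them SRGN, RAC2, CYBA, ARHGDIB, LAPTM5 and CD74. These 49 genes were detected in like numbers in both classes, 23.1 against 21.7 per CTC, with a difference of 1.34 ± 2.62 (SD, n = 3; exact p = 0.5). The difference lay in the 56 leukocyte genes that were at 0 in all cultured cells. In mouse 5542 the member held 10 of them and the negative CTCs held 2, 4 and 4. In mouse 5549 the members held 8 and 13 and the negative CTCs 2 and 5, so the classes did not overlap in either mouse. Processed pseudogenes at 0 in culture did not overlap in mouse 5542 either, at 167 against 94, 110 and 160. In mouse 5546 members held 9 to 26 of the 56 leukocyte genes (median 22) and negative CTCs 4 to 14 (median 8), with an overlap that included 5546-s9 at 13. The mean difference over the 3 mice was 8.17 ± 2.32 genes (SD; exact p = 0.25). The share of reads on these 56 genes was also higher in members of each mouse, at means of 0.049% and 0.0074%. The difference was 0.042 ± 0.024 points (SD, n = 3; exact permutation test, p = 0.25). After each CTC was thinned to 469614 reads, members held 6 to 22 of these genes (median 13) and negative CTCs 0 to 12 (median 2).

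The 10 tested genes of this group with the largest difference in detection were on the pan-leukocyte list (4), the neutrophil list (3) and the monocyte and macrophage list (3). CD37 (ENSG00000104894), a tetraspanin of leukocyte membranes, was detected in 7 of 11 members and in 0 of 26 negative CTCs, which allows a share of up to 11.5% there. Its normalized values in members ran from 0 to 133 with a median of 2.62, and CTC 5546-s9 held none of its reads. The related tetraspanin CD53 was detected in 7 of 11 members (median 3.72, highest 53.5) and in 1 of 26 negative CTCs, 5546-c5, at 4.90. CSF3R, the G-CSF receptor of neutrophils, was detected in 8 of 11 (median 2.24, highest 27.7) and in 2 of 26. All 3 genes were at 0 in cultured cells. Their negative CTCs would not have met the filter of at least 5 CTCs, so all 3 reached the tested set only through members. The same holds for MMP8, LCN2 and SPI1 below. The pseudogenes ELOBP1 and TXNP3, also at 0 in culture, were each detected in 8 of 11 members and 2 of 26 negative CTCs, as CSF3R was. Of all 1328 tested genes at 0 in culture, 25.2% were detected in a share of members at least 40 points higher.

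Of 11 tested genes of the neutrophil list, which holds granule proteins and receptors, 10 were detected in a larger share of members than of negative CTCs. Within mouse 5546 this held for 8 of them. All 11 were at 0 in culture. Of all 1328 tested genes at 0 in culture, 1130 were detected in a larger share of members, and 1061 within mouse 5546. PGLYRP1, a peptidoglycan-binding granule protein, was detected in 11 of 11 members, at 0.531 to 31.8 with a median of 5.49, and in 8 of 26 negative CTCs, of which the highest was 5546-s1 at 7.96. MMP8, the neutrophil collagenase, was detected in 7 of 11 and 2 of 26, LCN2 in 6 of 11 and 4 of 26, and LTF (lactoferrin) in 7 of 11 and 7 of 26. S100A9, a calcium-binding protein of neutrophils and monocytes, was detected in 11 of 11 members and in 19 of 26 negative CTCs. Its values ran from 53.8 to 567.8 (median 185) in members and from 0 to 335 (median 4.69) in negative CTCs. The ranges overlapped, while these medians, pooled over mice, stood far apart. Within mouse 5546, S100A9 was detected in all 8 members and all 9 negative CTCs, with means of 200.1 and 96.2. PGLYRP1 was detected there in 8 of 8 and 7 of 9. PRTN3, a neutrophil serine protease, was the exception among the 23 tested genes of this group, with 1 of 11 members and 4 of 26 negative CTCs.

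Of 8 tested genes of the monocyte and macrophage list, 7 were detected in a larger share of members, and 5 within mouse 5546. Median differences were 33.9 points over 37 CTCs and 13.2 points within mouse 5546. Of these 8 genes 4 were at 0 in culture, a group with 1130 of 1328 genes higher in members (1061 within mouse 5546). Among tested genes with reads in culture, 5214 of 12257 were higher (4664 within mouse 5546). The receptor adaptor FCER1G was detected in 10 of 11 members (median 7.35, highest 55.5) and 8 of 26 negative CTCs. TYROBP, which like FCER1G couples receptors to SYK, was detected in 10 of 11 (median 16.6, highest 102) and 11 of 26. SPI1, which encodes the myeloid factor PU.1, was detected in 7 of 11 and 3 of 26, with a highest value of 769 in 5546-s4 and of 28.0 in the negative CTC 5546-c5. IKZF1, a lymphoid and myeloid transcription factor, and MYO1G, a myosin of blood cells, were each detected in 4 of 11 and 0 of 26, all 4 members being CTCs of mouse 5546, which is too few CTCs for either gene to be tested. The chemokine receptors CXCR1 and CXCR2 were detected in 4 of 11 members each, against 0 and 1 of 26 negative CTCs.

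**Figure D2:**
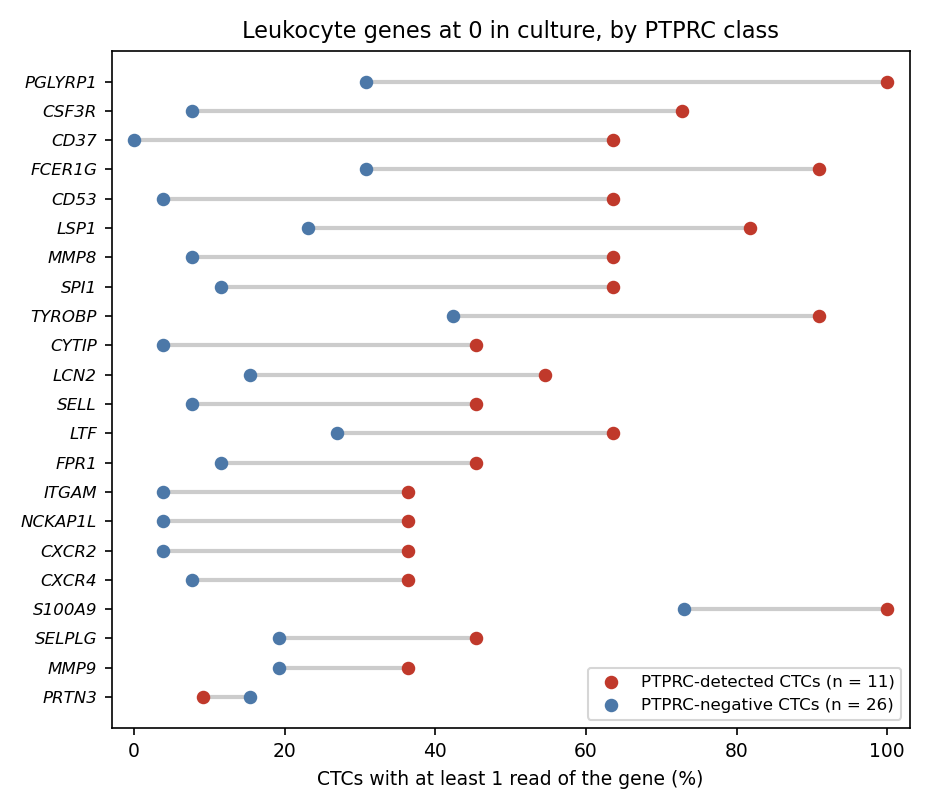
Share of CTCs with at least 1 read (x axis, percent) for 22 of the 23 leukocyte genes that were tested and were at 0 in culture; red points are the 11 PTPRC-detected CTCs and blue points the 26 PTPRC-negative CTCs. The red point lies to the right for 21 of these 22 genes and to the left for PRTN3. Of all 1328 tested genes at 0 in culture, 1130 were detected in a larger share of members.

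Detection counts were set against all genes, with a difference of at least 40 percentage points between the classes as the mark. Of 13585 genes detected in at least 5 of the 37 CTCs, 454 (3.34%) were detected in a share of members at least 40 points higher and 71 (0.523%) in a share at least 40 points lower. Among the 65 leukocyte genes tested, 12 passed the mark upward and 0 downward, with a median difference of 21.0 points against 0 over all genes. Genes at 0 in culture passed it upward more often, 334 of 1328 (25.2%), than genes with reads in culture, 120 of 12257 (0.979%). Against that background, 10 of the 23 leukocyte genes at 0 in culture passed (43.5%). Of 6 erythroid genes at 0 in culture 0 passed, but HBB, in 24 of 26 negative CTCs, had no room to. All 7 tested erythroid genes were detected in a larger share of members, with a median difference of 30.8 points. Within mouse 5546 this held for 4 of them, with a median of 11.1 points. Of the 1328 genes at 0 in culture it held for 1130, and for 1061 within mouse 5546 (median 18.1 points there). Of the 42 leukocyte genes with reads in culture, 2 passed (CORO1A and ITGB2). The median difference was 37.8 points for the 23 leukocyte genes, 24.8 points for all 1328 genes at 0 in culture and -1.40 points for the 12257 genes with reads in culture.

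Within mouse 5546, where animal and blood sample are shared, leukocyte genes passed the mark about as often as other genes at 0 in culture. There, 523 of all 13585 genes (3.85%) were at least 40 points higher in members and 397 (2.92%) at least 40 points lower. Of the genes at 0 in culture 267 (20.1%) passed the mark upward, and of the 23 leukocyte genes 5 did (21.7%), with medians of 18.1 and 30.6 points. Culture-silent pseudogenes passed it in 24.1%. Without 5546-s9, 12 of the 23 leukocyte genes and 360 of the 1328 genes at 0 in culture passed in the 36 remaining CTCs. No test was made between the leukocyte genes and the other genes at 0 in culture.

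Processed pseudogenes made up most of the group at 0 in culture. They are intronless copies of transcripts, near in sequence to their source gene, so reads can be divided between copies. Of 850 such pseudogenes 246 passed the mark upward (28.9%), against 46 of 245 protein-coding genes outside the leukocyte lists (18.8%). Members of mouse 5546 held reads of 445 of these pseudogenes on average and its negative CTCs of 254. Means were 167 against 121 in mouse 5542 and 226 against 104 in mouse 5549, a difference of 120 ± 72.7 (SD, n = 3; exact p = 0.25). Protein-coding genes at 0 in culture and outside the leukocyte lists also differed, by 28.7 ± 8.61 genes per CTC (SD, n = 3; exact p = 0.25).

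Across CTCs, the number of culture-silent leukocyte genes went with the number of culture-silent pseudogenes. Over all 37 CTCs Pearson's r was 0.96 and Spearman's rho 0.95, and within mouse 5546 (17 CTCs) r was 0.94. In mouse 5545, where no CTC held PTPRC, r was 0.82 over 10 CTCs. After thinning r was 0.93 over 37 CTCs. With all genes detected r was 0.40 and with reads -0.06. These values describe points that share libraries and, within a mouse, blood samples, and carry no p. PTPRC-negative CTCs reached into the range of members, with 14 culture-silent leukocyte genes in 5546-c5 and 5546-s1, 11 in 5546-s6 and 10 in 5545-12.

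**Figure D3:**
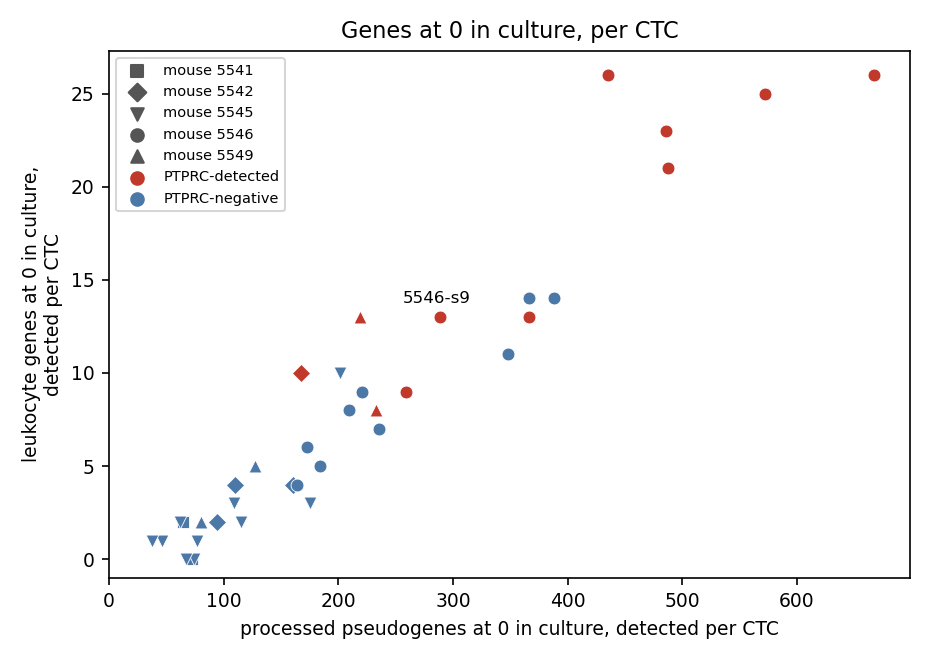
Leukocyte genes (y axis) and processed pseudogenes (x axis) at 0 in all cultured cells, counted per CTC with at least 1 read; each of the 37 points is a CTC, with its mouse given by the symbol. Members (red) run from 8 to 26 leukocyte genes, and the PTPRC-negative CTCs (blue) run from 0 to 14 along the same line.

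**Figure D4:**
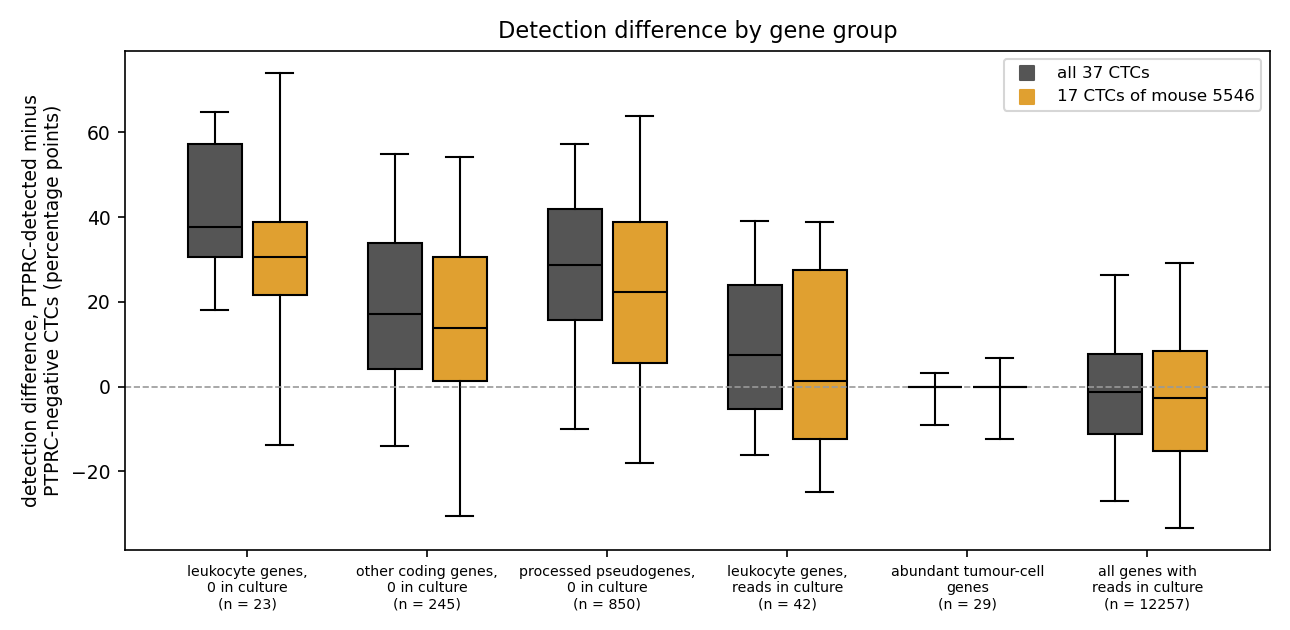
Difference in the share of CTCs that detect a gene, members minus PTPRC-negative CTCs in percentage points (y axis), for 6 gene groups; boxes give the quartiles with the median as a line, and whiskers the 5th and 95th percentiles of genes. The 3 groups at 0 in culture have medians of 37.8, 17.1 and 28.7 points over 37 CTCs, with lower whiskers below 0 for other coding genes and for pseudogenes, and the abundant tumour-cell genes have a median of 0.

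Direct partners of CD45 were detected about as often in both classes. Of 26 listed substrates and partners 16 were tested, 0 passed the mark upward over 37 CTCs and the median difference was -0.17 points. LYN was detected in 5 of 11 members and 11 of 26 negative CTCs, FYN in 5 of 11 and 16 of 26, and CSK, which places the phosphate that CD45 removes, in 8 of 11 and 19 of 26. The adaptor GRB2 was detected in 10 of 11 members and 26 of 26 negative CTCs. Other receptor tyrosine phosphatases had a median of -8.22 points over 12 tested genes, with PTPRE in 10 of 11 and 22 of 26 and PTPRK in 7 of 11 and 20 of 26.

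Lymphoid genes were nearly absent from both classes. Of the T cell list 2 genes were tested, IL7R (4 of 11 members, 3 of 26 negative CTCs) and TCF7 (2 and 6), and both also had reads in cultured cells. CD22 was the single B cell gene tested, and no NK cell gene was. CD3G was detected in 2 of 11 and 1 of 26, PAX5 in 2 of 11 and 1 of 26. HLA class II genes were detected in like numbers, 2.33 against 2.37 of 9 per CTC within mice, and CD74 in 9 of 11 members and 21 of 26 negative CTCs.

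Red cell transcripts were present in both classes. ALAS2, the first enzyme of heme synthesis in erythroid cells, was detected in 9 of 11 members (median 45.1, highest 291) and 11 of 26 negative CTCs (median 0, highest 157). HBB was detected in 11 of 11 and 24 of 26, with means of 3128 and 806, and its near copy HBD in 11 of 11 and 23 of 26. All 3 were at 0 in cultured cells. Erythroid genes took 0.538% of the reads in members and 0.195% in negative CTCs within mice, a difference of 0.343 ± 0.345 points (SD, n = 3; exact p = 0.25) that was positive in each of the 3 mice. The number of erythroid genes per CTC went with that of culture-silent leukocyte genes (r = 0.75 over 37 CTCs, and 0.75 within mouse 5546). Platelet genes showed no such order, with ITGB3 in 3 of 11 and 11 of 26.

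Genes abundant in LM2 cells showed no detectable difference between the classes. Of 30 listed genes 29 had a row, and each CTC of either class detected at least 26 of them. VIM, the mesenchymal filament protein, ran from 2893 to 20688 (median 7486) in members and from 5226 to 19142 (median 8419) in negative CTCs. S100A6 ran from 1861 to 12294 (median 5767) and from 1384 to 10258 (median 4582). The epithelial keratins KRT8 and KRT18 were detected in 37 of 37 CTCs, so members bore the transcripts of the tumor line. The genes of this list took 10.2% of the reads of the member of mouse 5542 and 9.90% in its negative CTCs. Shares were 8.32% against 10.1% in mouse 5546 and 6.78% against 7.04% in mouse 5549. The mean difference was -0.568 ± 1.05 points (SD, n = 3; exact permutation test, p = 0.75). The 3 members with the highest mitochondrial shares, 5546-s7, 5546-s9 and 5546-c10, had shares of 5.71%, 5.39% and 4.95%, below every negative CTC of their mouse (lowest 7.22%), and the part of mitochondrial reads in this was not tested.

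Over the 37 CTCs, this share did not go with the number of culture-silent leukocyte genes (r = -0.04, rho = 0.09). Within mouse 5546 r was -0.02, and over the 36 CTCs without 5546-s9 it was -0.02.

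Epithelial, mesenchymal and lung metastasis genes passed the 40-point mark in neither direction. Their median differences were -5.77, 0 and 3.50 points. Of the tested genes, 1 of 8, 4 of 14 and 8 of 14 were detected in a larger share of members. KRT19, an epithelial keratin, was detected in 7 of 11 members and 24 of 26 negative CTCs, with medians of 39.8 and 192 and overlapping ranges. MMP14, a membrane-bound metalloproteinase of invading cells, was detected in 3 of 11 and 15 of 26. EPCAM, the usual epithelial capture marker, was detected in 2 of 11 members and 6 of 26 negative CTCs. Of the lung metastasis genes, TNC was detected in 6 of 11 and 20 of 26 and EREG in 11 of 11 and 25 of 26.

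Cell-cycle genes were detected somewhat less often in members of each mouse. The 20 listed genes gave 7 against 13.3 per CTC in mouse 5542, 13.9 against 15.2 in mouse 5546 and 11 against 17 in mouse 5549, a difference of -4.56 ± 2.79 genes (SD, n = 3; exact p = 0.25, the smallest possible). The share of reads on these genes was not lower in every mouse, at 0.019% against 0.431% in mouse 5542, 0.336% against 0.383% in mouse 5546 and 0.418% against 0.377% in mouse 5549 (mean difference -0.139 ± 0.240 points, SD, n = 3; exact p = 0.5). The median log2 difference of the 20 genes was -1.89 against 0.04 over all genes tested, and 0 of them passed the threshold of the fit. AURKA, a mitotic kinase, was detected in 4 of 11 and 19 of 26. Both classes ran from CTCs with few of these genes (2 in 5549-6, 3 in 5542-4) to CTCs with all 20.

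**Figure D5:**
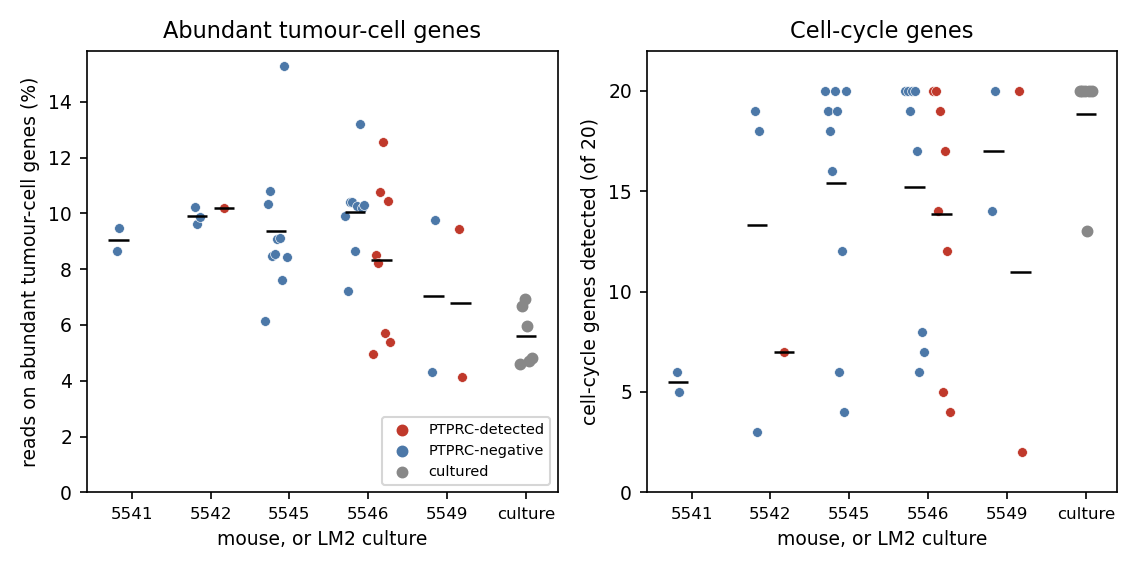
Share of reads on 29 abundant tumour-cell genes (left, percent) and number of 20 cell-cycle genes detected (right) per cell, by mouse and for the culture; points are cells and bars are means. The classes overlap in both panels, while 3 members (red) of mouse 5546, at 4.95% to 5.71%, lie below its lowest PTPRC-negative CTC (blue) at 7.22%, and member 5549-6 has 2 cell-cycle genes against 14 and 20 in the negative CTCs of its mouse.

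Across all genes, the fit of limma on log2(mean value + 1) per mouse and class called 0 of 13585 genes (0.0%) at an adjusted p under 0.05, and 391 had an unadjusted p under 0.05, of which 185 were higher in members. This fit compares 3 mice, 1 of which has a single member. Tests on summed reads called a few genes, 6 by edgeR (EGR1, SAA1 and ENSG00000274213 higher, TMPO, EEF1AKMT4 and PAEP lower) and 39 by DESeq2 (14 higher, 25 lower). None of the leukocyte list genes was called by limma, and 6 of the 65 had an unadjusted p under 0.05. The count of limma calls depended on single animals. Without mouse 5542, which has 1 member, 19 genes were called (17 higher, among them EGR1, HBB and the stress genes TRIB3 and DDIT3, and 2 lower), and without mouse 5549 8 were (2 higher, among them SAA1, and 6 lower, among them the cell-cycle gene UBE2C).

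Of the 10 genes with the smallest p toward higher values, EGR1, FOS and JUNB are immediate early transcription factors, which many stimuli induce within minutes. EGR1 had means of 74.3 against 11.9 in mouse 5542, 88.2 against 11.6 in mouse 5546 and 4491 against 100.045 in mouse 5549. Its highest value, 8982 in 5549-6, stands far above the highest negative CTC at 192, although 2 of 11 members were at 0. The log2 difference was 3.61 ± 0.76 (SE, n = 3 mice; limma adjusted p = 0.869, edgeR adjusted p = 0.0066). Without mouse 5549 it was 2.68. For FOS and JUNB the log2 differences were 2.59 and 3.54, with limma adjusted p = 0.869 for both.

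SAA1, an acute-phase protein of the serum amyloid A family, was detected in 11 of 11 members and 12 of 26 negative CTCs. Members held 63.3 to 954 (median 278) and negative CTCs 0 to 523 (median 0). Within mouse 5546 it was detected in all 8 members and all 9 negative CTCs, so detection differed in the other mice. The log2 difference was 4.66 ± 1.16 (SE, n = 3 mice; limma adjusted p = 0.869, edgeR adjusted p = 0.0066, DESeq2 adjusted p = 0.0059). SAA1 has near-identical copies, among which uniquely mapped reads may be divided.

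S100A9 and ALOX5AP were the myeloid genes among the 10. For S100A9 the means were 85.0 against 3.72 in mouse 5542, 200.1 against 96.2 in mouse 5546 and 320.1 against 3.63 in mouse 5549, a log2 difference of 3.78 ± 1.04 (SE; limma adjusted p = 0.869). ALOX5AP, the activating protein of leukotriene synthesis, was detected in 11 of 11 members (5.11 to 607, median 66.6) and in 10 of 26 negative CTCs. Within mouse 5546 it was detected in 8 of 8 members and 7 of 9 negative CTCs, so detection differed mostly in the other mice. It was not on the leukocyte lists, and 2 of the 6 cultured cells held reads of it. The remaining genes of the 10 were SPPL2A, SNX17, TOMM34 and AP3M2, with log2 differences of 4.09, 2.15, 1.37 and 4.24.

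Toward lower values, EEF1AKMT4, a lysine methyltransferase of elongation factor 1A, was at 0 in all 11 members and detected in 10 of 26 negative CTCs and 6 of 6 cultured cells. Its limma adjusted p was 0.869, and those of edgeR and DESeq2 were 0.0066 and 0.00049. TIAM1, a RAC exchange factor, and CARD16 were also at 0 in all members, against 10 and 11 of 26 negative CTCs. MOV10, an RNA helicase, was detected in 2 of 11 members (highest 9.54) and 17 of 26 negative CTCs (highest 88.4). PARP1 was detected in 7 of 11 and 20 of 26, and the histone gene H2AZ1 had medians of 1241 and 2618. The remaining genes were CNTROB, RFWD3, MBP and TMEM120A, with log2 differences of -3.75, -3.50, -3.91 and -4.22, and limma adjusted p = 0.869 held for every gene of this direction.

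CTC 5546-s9 held most of the PTPRC reads of the series, yet not the highest number of leukocyte genes. It had 858214 reads on 4656 genes, the fewest genes of any member. Beside 381 reads of PTPRC it held 680 of CORO1A, 553 of LYN, 455 of PTPN6, 176 of S100A9 and 111 of CXCR2. These encode an actin-binding protein of leukocytes, a kinase and a phosphatase of immune signaling, a granulocyte protein and a chemokine receptor. It held 0 reads of CD53, CD37, CSF3R, SPI1, TYROBP, LAPTM5 and CD74. Tumor-line transcripts were plentiful in the same cell, with 10299 reads of S100A6, 5367 of VIM and 2630 of ANXA2, and 26 of the 29 abundant tumor-cell genes were detected.

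PTPRC was 1 of 69 genes with at least 100 reads in 5546-s9 and a value at least 4-fold that of any other CTC. The highest were PTBP2 (2412 reads), APOBEC3F (2089) and AKAP1 (1667), none of them on a leukocyte list, while LYN and PTPN6 were on 1. Leaving out 5546-s9 changed neither the count of limma calls, which stayed at 0, nor the direction of the difference in the number of leukocyte genes. The log2 difference of LYN, which no test called, turned from 0.64 to -0.85 without this CTC.

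The genes whose detection over the 37 CTCs overlapped most with that of PTPRC were S100A11P1, PPIAP8 and S100A11P5, all processed pseudogenes, followed by HNF4A and SLC6A17. Their Jaccard indices, the CTCs with both genes over those with either, were 0.714, 0.692, 0.688, 0.667 and 0.667. S100A11P5 was detected in 11 of 11 members and 5 of 26 negative CTCs, and HNF4A in 8 of 11 and 1 of 26, with means of 0.730 and 0.019. All 5 were at 0 in cultured cells. Next to PTPRC on chromosome 1, NEK7 was detected in 5 of 11 members, 15 of 26 negative CTCs and 5 of 6 cultured cells, and CTC 5546-s9 held none of its reads.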

How the data were processed

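The authors used STAR 2.7.10a, GRCh38 and GENCODE 38, took unique alignments and ignored strand. They excluded cells with under 50% of reads mapped uniquely or over 50% mitochondrial, and scaled counts by DESeq2 1.42.1 size factors. The deposited values are this signal for 25739 genes. Division by the smallest nonzero value of each cell gave whole reads for 100% of values (tolerance 0.001). Symbols come from GENCODE release 44, which matched 25565 identifiers. The deposited columns were all matched to labelled cells.

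Members and gene lists were chosen with earlier results of these data known. The split by culture and the mark of 40 percentage points were added after seeing the values. Cells are not replicates, so values were averaged per mouse and class and fitted with limma 3.58.1 on log2(mean + 1) with mouse as a block, without PTPRC, for genes detected in at least 5 CTCs, with Benjamini-Hochberg adjustment over 13585 genes. Per-cell measures were compared by sign flips of the 3 within-mouse differences, a two-sided exact permutation test. The count test on summed reads, edgeR 4.0.16, called 6 genes; DESeq2 1.42.0 was also run. The steps were tested on simulated data.

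Genes named are those of 17 lists with the largest differences in detection, the 10 with the smallest limma p in each direction, the 5 with the highest Jaccard index with PTPRC, and its neighbors; others were chosen after their values were seen. Of the 23 leukocyte genes at 0 in culture, 1 is not reported here by name. No doublet caller was run. Calculations used Python 3.11.15 (numpy 2.4.6, pandas 2.3.3, scipy 1.17.1) and R 4.3.3.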

Additional observations from a re-analysis of the deposited data

Results flagged for a closer look

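Several measures were examined for a distant cell in the 3 sets of 4 to 10 CTCs of the same mouse and class. Of 19 combinations of measure and set 5 held one, from 2 sets. Chance gives about 1 in 20 for a single combination, but these share cells, and PTPRC itself chose the members, so the count is a description. PTPRC reached 444 CPM (reads scaled to an equal total per cell) in 5546-s9, against 7.95 in the next member of mouse 5546. Among the same members, 5546-c4 held 2041330 reads against 1288850 in the next. The share of reads on leukocyte genes was 1.46% in 5546-s4 and 0.912% in the next member. In mouse 5545, PTPRC-negative CTC 5545-6 detected 2313 genes, against 6753 in the next, and had 15.3% of its reads on abundant tumor-cell genes, against 10.8%.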

How the results depend on the processing

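The difference in leukocyte genes kept its direction under every alternative run, from 7.33 genes (values of at least 8) to 16.1 (all 37 CTCs, no replicate block). The upper value pools all mice, including those without members, and is not a within-mouse difference. With 1 mouse left out the within-mouse difference ran from 7.92 to 11.5. Leaving out 1 mouse at a time gave differences of -111181 to 78847 reads, -239 to 723 genes detected, -1.45 to 1.09 points of mitochondrial reads, -0.098 to 0.177 points of leukocyte reads and -1.003 to 0.019 points of abundant tumor-cell reads. Without 5546-s9 the difference was 6971 reads and -0.430 mitochondrial points, and with at least 2 PTPRC reads 39927 and -0.978, each turned in sign from -6901 and 0.063, values well within the spread over mice. Limma called 0 genes, 17 higher and 2 lower without mouse 5542 (the same fit as without CTC 5542-1), 2 and 6 without mouse 5549, 0 without mouse 5546 and 0 without any other single CTC. With PTPRC scored after thinning, 8 and 2 were called. On summed reads, edgeR called 3 higher and 3 lower with TMM, 3 and 2 with DESeq2 size factors and 4 and 4 with no filter, and DESeq2 14 and 25. Added after seeing the data, edgeR without 5546-s9 called 4 and 4, and with mouse and letter as blocks 2 and 2. Of the 37 tested genes that had the smallest p, were most like PTPRC or were list genes past the 40-point mark, 1 changed direction, the pseudogene PPIAP8 (log2 0.56, and -0.51 without mouse 5546). Of 167 list genes tested 91 changed direction in at least 1 alternative, LYN among them. Adjusted p over the alternatives ran from 0.0033 to 0.998 for EGR1, from 0.0051 to 0.997 for SAA1 and from 0.00049 to 0.998 for EEF1AKMT4. The cause of these differences was not tested. Precision is limited by 3 mice, by 11 members and by PTPRC counts of 1 to 3 reads in 6 of them.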
